A study of Mus musculus with 8 samples.

Results

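The Hox gene clusters were followed on 8 mouse expression arrays, from 3 lines of induced hepatocyte-like cells (iHep), 3 samples of primary hepatocytes (PH) and 2 samples of mouse embryonic fibroblasts (MEF). Members were all genes named Hox with a cluster letter and a paralogue number that had a probe set, the measuring unit of the array, annotated to that gene alone. Of the 39 Hox genes in the RefSeq annotation 34 met this rule, among 17097 genes measured. They were 9 genes of cluster A on chromosome 6, 10 of cluster B on chromosome 11, 6 of cluster C on chromosome 15 and 9 of cluster D on chromosome 2. The remaining 5 had no such probe set and were not analysed here. Among the members 6 had more than 1 probe set, and the brightest on average was taken.

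Hox genes encode homeodomain transcription factors that give cells their regional identity along the head-to-tail axis and along the limb. Within a cluster the genes lie in the order in which they act, with low paralogue numbers in anterior and high numbers in posterior or distal territories, and genes of the same number in different clusters are paralogues with related roles. Fibroblasts in culture are known to keep the Hox combination of the body site they came from, a positional code. The comparison asks which part of the fibroblast combination is found in hepatocyte-like lines that were made from fibroblasts.

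The lines came from fibroblasts transduced with retroviruses and were profiled at passage 10 after culture in hepatocyte medium. All carried Hnf4a. Foxa3 was added to it in 4a3, Foxa3 with c-Myc and Klf4 in 4a3CK, and Foxa1 with c-Myc and Klf4 in 4a1CK. Each line is 1 array, so a line has no replicate of its own. The labels do not say whether a line is a single clone or which fibroblast preparation it started from. The PH samples were isolated by collagenase perfusion from livers of male C57/B6 mice 8 to 10 weeks old and then cultured. The MEF samples came from C57/B6 embryos at embryonic day 13.5, and for MEF 1 the label adds that the head and the internal organs had been removed. No label gives the body site of the fibroblasts. Nothing in the labels says that arrays of 1 group came from separate animals, so p-values cover the spread among these samples, which may be technical. Where the lines were pooled as a group, their spread includes differences between lines that received different factors. It is not the spread of replicates of 1 condition. It also enters the comparison of PH with MEF, since the groups share 1 estimate.

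Values are log2 signals, so that a difference of 1 is a 2-fold difference. They were compared between arrays for the same gene and never between genes, because probe sets differ in brightness. As a guide to dim signal, each array was given a floor 1 above its median over all genes, which is a convention and not a detection call. Of 10 hepatocyte markers 5, 4 and 1 lay above the floor in 4a3, 4a3CK and 4a1CK, 7 on each PH array and 0 on both MEF arrays. Of 10 fibroblast markers 0, 0 and 3 lay above it in 4a3, 4a3CK and 4a1CK, 2, 2 and 0 in PH 1, PH 2 and PH 3, and 10 and 8 in MEF 1 and MEF 2. The 3 in 4a1CK were Col3a1, Twist1 and Prrx1. Of 8 macrophage markers 0, 0 and 1 lay above the floor in the lines in that order, 0 on all PH arrays, and 2 and 5 in MEF 1 and MEF 2. The array PH 3 stood apart, with a gene median of 5.80 against 4.93 to 5.06 on the other 7 arrays. Its shift makes differences between PH and MEF 0.26 higher as deposited than after subtracting array medians. PH 1 and PH 2 were nearly the same, with an SD of their differences of 0.16 over all genes, against 0.57 for the MEF pair.

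Few Hox genes gave a signal above the floor. In the lines 3 of 34 did so in 4a3, 1 in 4a3CK and 3 in 4a1CK. In PH 1, PH 2 and PH 3 the numbers were 1, 1 and 0, and both MEF arrays had 7. These are 0% to 20.6% of the Hox genes, while over all genes the share above the floor was 35.2% in 4a3 to 37.4% in MEF 2. In all, 10 of the 34 passed the floor on at least 1 array, and 0 on all of them. In MEF the genes above it on both arrays were Hoxa5, Hoxa10, Hoxb2, Hoxc8, Hoxd8 and Hoxd13. Hoxa3 passed on MEF 1 and Hoxb9 on MEF 2 alone. In PH the only gene above it was Hoxa3, on PH 1 and PH 2, and Hoxa3 is an anterior gene needed for the pharyngeal organs. The other Hoxa3 probe sets, not used, were below the floor there, with 3.61 to 4.36 in PH 1 and 3.64 to 4.26 in PH 2. In the lines Hoxa9, Hoxa10 and Hoxc10 passed in 4a3, Hoxc8 in 4a3CK, and Hoxb2, Hoxc8 and Hoxd8 in 4a1CK. With the probe sets used, the other 24 members were below the floor everywhere, and absence of signal cannot be told from a probe set that works poorly. One of these was Hoxb3, whose second probe set, not used, had 6.06 in MEF 1, above the floor of 5.97 there.

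The range of values over the 8 arrays was at least 1 for 21 of 34 members (61.8%, against 64.3% of all genes) and at least 2 for 9 members (26.5%, against 20.5%). Those 9 were Hoxa5, Hoxa10, Hoxa11, Hoxb6, Hoxb9, Hoxc8, Hoxc10, Hoxd8 and Hoxd13. Hoxc8 had the widest range of the 34, 5.37, and Hoxa10 the next, 4.87. All 9 belong to paralogue numbers 5 to 13. With the probe sets used, none of the 11 members with paralogue numbers 1 to 4 spanned 2, and the widest was Hoxb2 with 1.87. A second Hoxb3 probe set, not used, did span 2, from 3.92 in PH 1 to 6.06 in MEF 1. The range of Hoxb6 rested on PH 3, where it was 5.61 against 3.39 to 4.55 on the other arrays. After subtracting array medians 9 members again spanned at least 2, but Hoxb6 (1.36) and Hoxb9 (1.99) were no longer among them, and Hoxa3 (2.53) and Hoxd10 (2.15) were. The share of all genes was then 17.2%, and a range of at least 1 was found for 52.9% of Hox genes, against 46.5% of all genes.

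**Figure D1:**
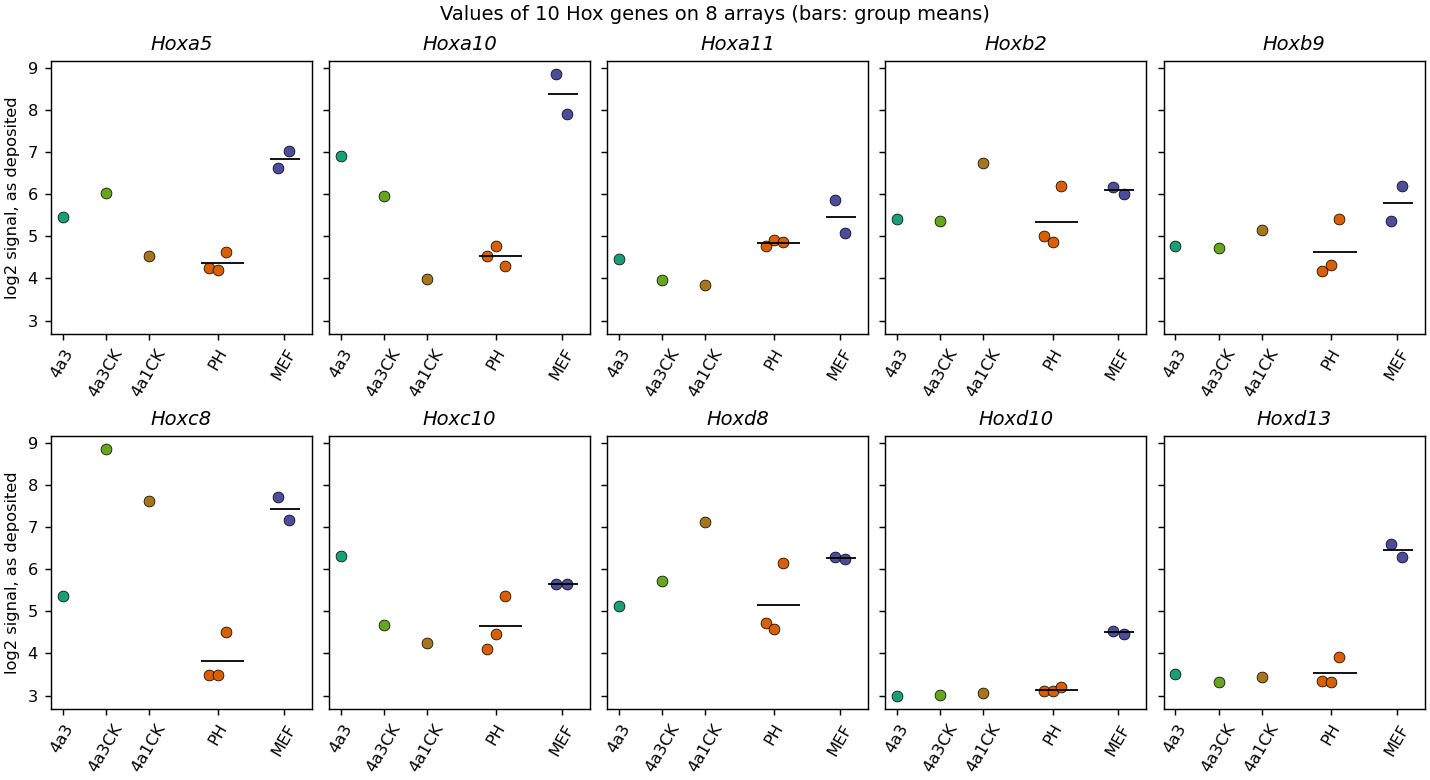
Deposited log2 signal (vertical axis) of 10 Hox genes on the 8 arrays, 1 point per array, with the lines 4a3, 4a3CK and 4a1CK left of PH and MEF and a bar at the mean of PH and of MEF. Hoxd10 and Hoxd13 have all lines beside PH, while Hoxc8 has 4a3CK and 4a1CK near or above the MEF arrays and Hoxa10 has the 3 lines spread over 3 levels.

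Hepatocytes had lower values than fibroblasts for 5 of the 34 Hox genes and higher values for 0 (limma, adjusted p under 0.05 and a log2 difference of at least 1). Over all genes 2.47% were lower and 3.37% higher in this comparison. At an unadjusted p under 0.05 limma gave 7 Hox genes lower and 0 higher, against 5.69% and 10.7% of all genes. The 5 were Hoxa5, Hoxa10, Hoxc8, Hoxd10 and Hoxd13, and all have paralogue numbers of 5 or more. So do most of the 34 members, with 11 numbered 1 to 4, 9 numbered 5 to 8 and 14 numbered 9 to 13. In bulk RNA such a difference does not tell fewer cells with the transcript from less transcript per cell.

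The starts of 4 of these genes are shown because their signal separated the groups, with the 250 bases before each annotated start (RefSeq, GRCm38.p6). Each is written 5′ to 3′ on the strand of the gene, and capitals mark 3 short motifs on either strand. These are the TATA box, searched as TATAAA with its reverse TTTATA, the GC box, searched as GGGCGG with its reverse CCGCCC, and the CCAAT box with its reverse ATTGG. Hoxa10 has a pair of annotated starts, and Hoxc8 has no entry in the table.
Hoxa5, chr6:52204588-52204837, minus strand: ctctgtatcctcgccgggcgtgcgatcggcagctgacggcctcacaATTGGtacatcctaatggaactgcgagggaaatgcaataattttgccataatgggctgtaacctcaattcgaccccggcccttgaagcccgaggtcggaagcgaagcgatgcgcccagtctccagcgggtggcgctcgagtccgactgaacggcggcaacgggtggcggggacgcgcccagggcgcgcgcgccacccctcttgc
Hoxa10, downstream start, chr6:52234940-52235189, minus strand: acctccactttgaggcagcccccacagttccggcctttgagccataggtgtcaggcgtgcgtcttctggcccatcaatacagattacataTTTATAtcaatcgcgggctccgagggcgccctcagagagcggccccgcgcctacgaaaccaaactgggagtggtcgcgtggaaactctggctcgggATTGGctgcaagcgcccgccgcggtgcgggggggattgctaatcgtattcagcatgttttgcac
Hoxa10, upstream start, chr6:52240855-52241104, minus strand: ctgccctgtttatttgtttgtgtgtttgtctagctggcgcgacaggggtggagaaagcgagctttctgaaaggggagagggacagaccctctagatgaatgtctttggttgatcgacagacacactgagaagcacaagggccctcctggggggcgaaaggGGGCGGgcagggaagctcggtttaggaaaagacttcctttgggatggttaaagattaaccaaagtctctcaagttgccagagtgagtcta
Hoxd10, chr2:74691641-74691890, plus strand: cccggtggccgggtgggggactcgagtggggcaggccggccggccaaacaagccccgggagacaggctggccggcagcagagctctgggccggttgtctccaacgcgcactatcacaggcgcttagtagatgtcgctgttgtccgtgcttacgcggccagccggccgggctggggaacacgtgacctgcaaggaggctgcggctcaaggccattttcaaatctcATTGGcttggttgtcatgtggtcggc
Hoxd13, chr2:74667975-74668224, plus strand: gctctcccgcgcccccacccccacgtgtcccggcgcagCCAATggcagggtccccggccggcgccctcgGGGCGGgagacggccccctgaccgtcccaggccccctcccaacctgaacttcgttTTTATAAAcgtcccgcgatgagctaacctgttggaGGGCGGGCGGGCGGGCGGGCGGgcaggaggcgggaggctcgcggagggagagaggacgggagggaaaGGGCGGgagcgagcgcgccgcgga
In Hoxd13 the 2 matches to TATAAA overlap each other, and 5 of its 7 matches to GGGCGG overlap in 1 run. The number of CpG dinucleotides in these windows was 28 for Hoxa5, 20 and 7 for the Hoxa10 starts, 20 for Hoxd10 and 31 for Hoxd13. The median was 12.5 over the 24 windows of 22 Hox genes in the table and 6 over all 32851 windows. CCAAT or its reverse was found in 58.3% of Hox windows and 33.8% of all windows, GGGCGG in 41.7% and 32.7%, and TATAAA in 16.7% and 12.4%. A match of letters is a description of the window and not a binding site.

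Hoxd13, the most posterior gene of cluster D, which patterns digits and the urogenital tract, gave the clearest separation of fibroblasts from both other groups. It had 3.52, 3.31 and 3.44 in 4a3, 4a3CK and 4a1CK, 3.35, 3.33 and 3.92 in PH 1, PH 2 and PH 3, and 6.60 and 6.30 in MEF 1 and MEF 2. The 6 other arrays lay below both MEF arrays with a wide gap, and the highest of them, PH 3, differed from MEF 2 by −2.38. The difference was −2.91 ± 0.26 (SE) in PH against MEF, with an adjusted p of 0.000321. In the lines together against MEF it was −3.03 ± 0.26, adjusted p 0.000415. A second Hoxd13 probe set did not show this: it had 3.75, 3.73 and 3.80 in the lines, 3.52, 3.47 and 4.26 in PH and 3.54 and 3.68 in MEF. Averaging both probe sets lowered the size of the difference to −1.39 in PH against MEF (adjusted p 0.0266) and to −1.44 in the lines against MEF (adjusted p 0.0186).

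Hoxd10, which acts in hindlimb and lumbar motor neurons, also had all lines and PH arrays below both MEF arrays. Its values were 2.98, 3.0 and 3.06 in 4a3, 4a3CK and 4a1CK, 3.10, 3.11 and 3.20 in PH, and 4.53 and 4.47 in MEF. Even the MEF values lay below the array median. The difference was −1.36 ± 0.20 in PH against MEF (adjusted p 0.00447, or 0.0531 without MEF 1) and −1.48 ± 0.20 in the lines against MEF (adjusted p 0.00357). Hoxd11 and Hoxd12, which lie between these genes in cluster D, differed by at most 0.22 between the means of PH or the lines and the mean of MEF.

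Hoxa5, a gene of the cervical and upper thoracic region that is needed in lung mesenchyme, had 5.46, 6.01 and 4.54 in 4a3, 4a3CK and 4a1CK, 4.25, 4.20 and 4.63 in PH, and 6.63 and 7.02 in MEF. The PH arrays were all below both MEF arrays, and 4a3 and 4a3CK lay between. The PH difference from MEF was −2.46 ± 0.41 with an adjusted p of 0.00863, or 0.075 without MEF 2. The lines together differed from MEF by −1.49 ± 0.41, which did not pass (adjusted p 0.07, or 0.0416 with array medians subtracted and 0.0458 with quantile normalization).

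Hoxa10, a posterior gene of the lumbar region, the limb and the uterus, had 6.90, 5.96 and 3.98 in 4a3, 4a3CK and 4a1CK, 4.53, 4.77 and 4.30 in PH, and 8.85 and 7.89 in MEF. All lines were below both MEF arrays, and only 4a1CK was as low as hepatocytes. The only Hoxa10 probe set can bind several transcripts. PH differed from MEF by −3.84 ± 0.73 (adjusted p 0.0165). That call was lost without MEF 1 (adjusted p 0.136), MEF 2 (0.0515), PH 1 (0.0545) or PH 3 (0.0847), and with the replicate block (0.0506), while the difference stayed between −4.32 and −3.36 in all alternatives. The lines together differed from MEF by −2.76 ± 0.73 and did not pass (adjusted p 0.0626, or 0.0419 without dim genes and 0.049 with a trended and robust variance).

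Hoxc8, a thoracic gene, was the member in which the lines parted most. It had 5.37, 8.86 and 7.61 in 4a3, 4a3CK and 4a1CK, 3.48, 3.48 and 4.50 in PH, and 7.71 and 7.16 in MEF. Line 4a3CK was above both MEF arrays, 4a1CK between them, and 4a3 between PH and MEF. PH was lower than MEF, with a difference of −3.61 ± 0.86 (adjusted p 0.0458). This call was lost without any 1 of the MEF or PH arrays (adjusted p 0.101 to 0.243) and with PH 1 and PH 2 averaged (0.128). The lines together did not differ from MEF beyond their spread (−0.16 ± 0.86, adjusted p 0.932).

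Several other members were lower in PH than in MEF without passing. Hoxd8, whose values were 4.73, 4.57 and 6.15 in PH and 6.29 and 6.23 in MEF, differed by −1.11 (adjusted p 0.481). With the replicate block, which uses PH 1, PH 2 and the MEF arrays alone, it was called (−1.61, adjusted p 0.0335). Hoxc10 differed by −1.0 (adjusted p 0.507), Hoxb9 by −1.15 (0.189) and Hoxc4 by −0.95 (0.091). Hoxb9 was called with array medians subtracted (−1.41, adjusted p 0.0229), with quantile normalization (0.0276) and without PH 3 (0.0395). As deposited, PH 3 was the highest PH array in each of the 4 genes. After subtracting array medians it stayed the highest for Hoxd8, Hoxc10 and Hoxb9. For Hoxc4 it was then the lowest, at −1.64 against −0.80 in PH 1 and −0.88 in PH 2. In all, 11 of the 34 Hox genes had every PH array below every MEF array, against 7.9% of all genes, and 1, Hoxb1, had every PH array above, against 30.1%. The median difference over the 34 members was −0.19 in PH minus MEF, beside 0.25 over all genes.

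The arrays were also split by their sample numbers, taken as the order of submission, since the labels used here name no batch. The first set held MEF 2, PH 3 and all lines, and the second held MEF 1, PH 1 and PH 2. Comparisons of a line with MEF 1, PH 1 or PH 2 thus cross the sets. For the 5 genes called in PH against MEF, every PH array lay below every MEF array. A lower PH value within each set was therefore fixed in advance, and only the sizes are described. In the first set, PH 3 minus MEF 2 was −3.60 for Hoxa10, −2.66 for Hoxc8, −2.39 for Hoxa5, −2.38 for Hoxd13 and −1.26 for Hoxd10. In the second set, the mean of PH 1 and PH 2 minus MEF 1 was −4.20, −4.22, −2.40, −3.26 and −1.42 for the same genes in that order. Hoxd8 differed by −0.08 in the first set and by −1.63 in the second. With array medians subtracted, Hoxd8 in the first set was 0.36 in PH 3 and 1.26 in MEF 2. For the lines, only the first set allows a comparison within a set. There the mean of the lines minus MEF 2 was −2.28 for Hoxa10, 0.12 for Hoxc8, −1.68 for Hoxa5, −2.87 for Hoxd13 and −1.45 for Hoxd10.

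The lines pooled as 1 group were lower than MEF for 3 of the 34 Hox genes, Hoxa11, Hoxd10 and Hoxd13, and higher for 0. Over all genes 4.47% were lower and 1.98% higher. At an unadjusted p under 0.05 limma gave 5 lower and 0 higher, against 10.9% and 10.0% of all genes. Hoxa11, which patterns the forearm and lower leg and the kidney, had 4.47, 3.97 and 3.84 in 4a3, 4a3CK and 4a1CK, 4.77, 4.90 and 4.87 in PH, and 5.85 and 5.08 in MEF. The lines were below both other groups on every array, and all values lay below the floor. The difference from MEF was −1.37 ± 0.30 (adjusted p 0.0314). It rested on MEF 1, without which it was −0.99 with an adjusted p of 0.243, and it was lost in 10 of 19 alternatives. In all, 10 Hox genes had every line below both MEF arrays, against 18.4% of all genes, and 5 had every line above, against 42.6% of all genes. The median difference of the 34 members was −0.17, beside 0.16 over all genes.

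Taken 1 line at a time against the 2 MEF arrays, with the lone line assumed to vary like the PH and MEF arrays, Hox genes were lower in 1 case in 4a3, 2 in 4a3CK and 3 in 4a1CK. The shares of all genes called lower were 2.5%, 1.98% and 2.13% in the same order. Hoxd13 was called in each line, with a difference of −2.93 ± 0.45 in 4a3 (adjusted p 0.00954), −3.14 ± 0.45 in 4a3CK (0.00558) and −3.02 ± 0.45 in 4a1CK (0.00911). With both Hoxd13 probe sets averaged these calls were lost (adjusted p 0.164, 0.144 and 0.171), and without MEF 1 those of 4a3 (0.0588) and 4a1CK (0.0614). Hoxa10 was called lower in 4a3CK (−2.41 ± 0.51, adjusted p 0.036, or 0.088 with quantile normalization, 0.102 with array medians subtracted and 0.235 without MEF 1) and in 4a1CK (−4.39 ± 0.51, adjusted p 0.00302). In 4a3 its difference from MEF was −1.47 and did not pass (adjusted p 0.187). Hoxd10 differed from MEF by −1.52 in 4a3, −1.49 in 4a3CK and −1.44 in 4a1CK, and did not pass in any line. It was called lower in each line in 3 of 17 alternatives. These were leaving out PH 3, quantile normalization, and a trended and robust variance. Hoxa5 was called in 4a1CK (−2.28 ± 0.44, adjusted p 0.0259, or 0.0945 and 0.151 without MEF 1 and MEF 2). No Hox gene was called higher than MEF in a line, where 1.56%, 1.6% and 1.18% of all genes were. At an unadjusted p under 0.05, 5, 4 and 6 Hox genes were lower in 4a3, 4a3CK and 4a1CK (8.62%, 6.31% and 7.75% of all genes), and 1, 1 and 0 were higher (6.0%, 5.66% and 6.22% of all genes).

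**Figure D2:**
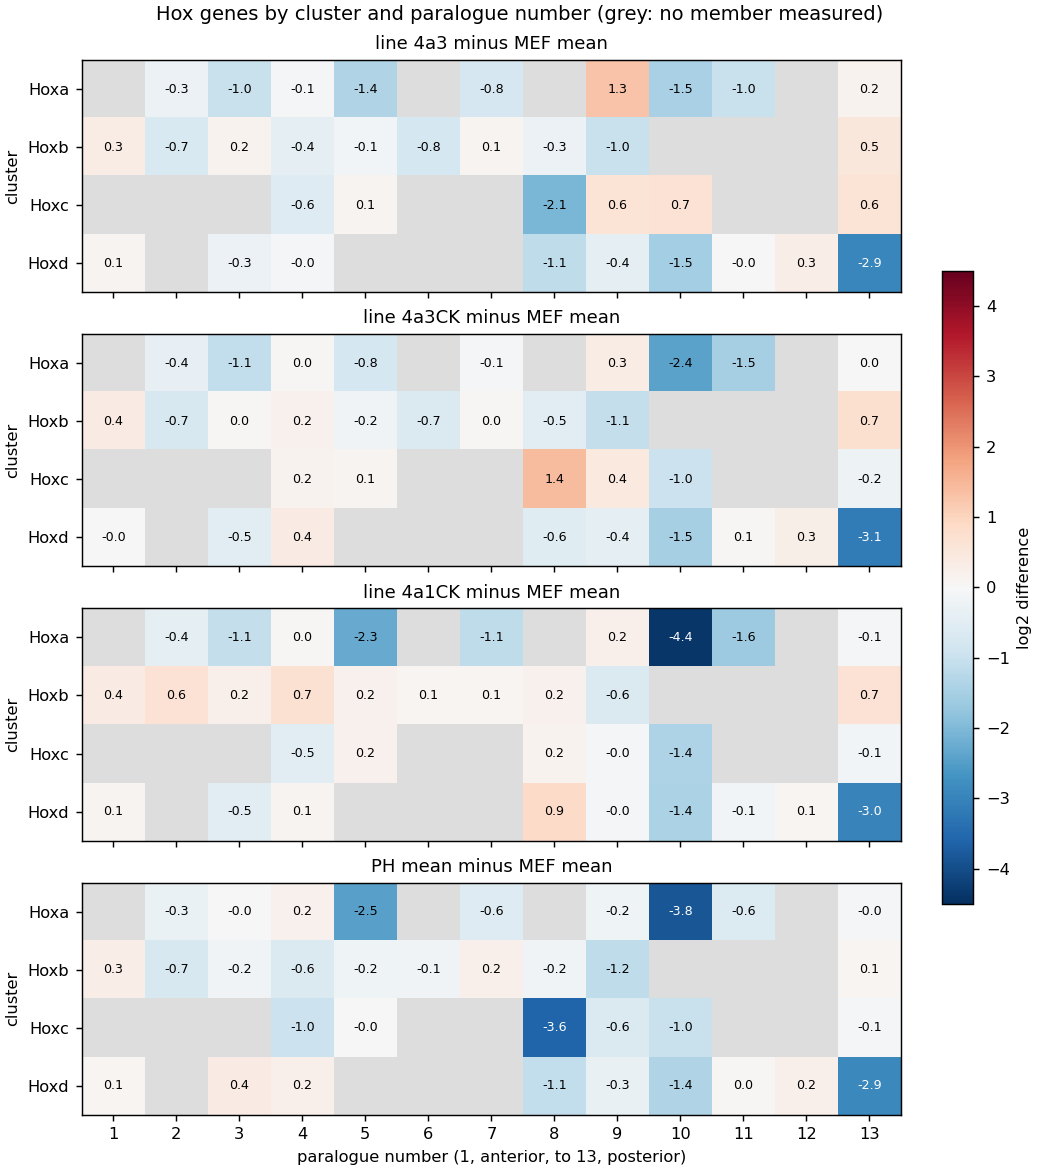
Log2 difference from the MEF mean (colour and number in each cell) by cluster (rows) and paralogue number (columns) for line 4a3, line 4a3CK, line 4a1CK and the PH mean, from top to bottom, with grey cells for genes not measured. The Hoxd10 and Hoxd13 cells are below −1 in all 4 panels, while Hoxa10, Hoxc8 and Hoxd8 change between panels.

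Along the clusters, with the probe sets used, most differences from fibroblasts were small at the anterior end and mixed further on. Of the genes numbered 1 to 4, only Hoxa3 and Hoxb2 passed the floor on any array with these probe sets. Of those numbered 5 to 8, Hoxa5, Hoxc8 and Hoxd8 did, and of those numbered 9 to 13, Hoxa9, Hoxa10, Hoxb9, Hoxc10 and Hoxd13. A small difference in a gene below the floor does not show that a fibroblast level was kept. Over the 11 genes with paralogue numbers 1 to 4 the median difference from MEF was −0.26 for 4a3, 0.04 for 4a3CK, 0.13 for 4a1CK and −0.01 for PH. The value for 4a3CK turned to −0.06 and that for PH to −0.27 after array medians were subtracted. The second Hoxb3 probe set, not used, differed from MEF by −1.33 in PH and by −1.18 in the lines, by the means. With the probe sets used, only Hoxa3 was at least 1 below MEF in this stretch in each of the lines. Hoxa3 had 5.21, 5.10 and 5.14 in 4a3, 4a3CK and 4a1CK, 6.80, 6.71 and 5.12 in PH, and 6.63 and 5.82 in MEF, but its 3 other probe sets did not follow this pattern. Over the 9 genes numbered 5 to 8 the medians were −0.75, −0.16, 0.17 and −0.20, with a range from −3.61 for Hoxc8 in PH to 1.42 for Hoxc8 in 4a3CK. Over the 14 genes numbered 9 to 13 they were 0.06, −0.33, −0.12 and −0.48. In this last stretch 4, 5, 5 and 5 genes were at least 1 below MEF in 4a3, 4a3CK, 4a1CK and PH.

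Cluster by cluster, the order of the lines was not the same. In cluster A, 4a3 was the highest of the lines for 6 of 9 genes and 4a1CK the lowest for 7 of 9. In cluster B, 4a1CK was the highest for 8 of 10 genes and the lowest for 0. In cluster C, 4a3 was the highest for 3 of 6 genes and the lowest for the other 3, and in cluster D, 4a1CK was the highest for 4 of 9 and the lowest for 3. Over all genes 4a3 was the highest of the lines in 34.9%, and 4a1CK the highest in 30.5% and the lowest in 30.5%. Genes of a cluster are not independent, many of these differences were small, and the order was not tested. The median difference from MEF in cluster A was −0.75 in 4a3, −0.37 in 4a3CK and −1.09 in 4a1CK, with −0.30 in PH. In cluster B it was −0.20, −0.06 and 0.21, with −0.16 in PH. In cluster C it was 0.35, 0.14 and −0.09, with −0.79 in PH. In cluster D it was −0.26, −0.45 and −0.04, with 0.04 in PH, which turned to −0.21 after array medians were subtracted.

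Between lines, 2 Hox genes differed by at least 1 in 4a3CK against 4a3 (9.81% of all genes), 6 in 4a1CK against 4a3CK (10.7%) and 7 in 4a1CK against 4a3 (5.89%). At least 2 apart were 1, 0 and 3 Hox genes for these pairs in the same order, against 2.23%, 3.16% and 1.32% of all genes. These pairs of single arrays have no replicate and no test. Hoxc8 was 3.49 higher in 4a3CK than in 4a3, and Hoxc10, a lumbar gene, was lower, with a difference of −1.64. Hoxc10 had 6.31, 4.67 and 4.24 in 4a3, 4a3CK and 4a1CK, 4.11, 4.45 and 5.36 in PH, and 5.64 and 5.65 in MEF. Line 4a3 was thus above both fibroblast arrays, and the other lines fell within the hepatocyte range.

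Line 4a1CK had the higher value against 4a3 for Hoxb2 (by 1.33), Hoxb4 (1.11), Hoxc8 (2.24) and Hoxd8 (2.00), and the lower value for Hoxa9 (−1.06), Hoxa10 (−2.92) and Hoxc10 (−2.06). Hoxb2 and Hoxb4 are anterior genes of the hindbrain and neck. Hoxd8 had 5.13, 5.71 and 7.13 in 4a3, 4a3CK and 4a1CK, 4.73, 4.57 and 6.15 in PH, and 6.29 and 6.23 in MEF. Line 4a1CK was the highest of all 8 arrays. The second Hoxd8 probe set, which can bind several transcripts, gave 3.60, 3.96 and 5.16 in the lines in the same order. Hoxb2 had 5.41, 5.35 and 6.73 in 4a3, 4a3CK and 4a1CK, 5.00, 4.86 and 6.18 in PH, and 6.17 and 6.0 in MEF. Only 4a1CK among the lines had fibroblast markers above the floor. Their part in its Hox values was not tested.

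Line 4a1CK differed from 4a3CK by 1.38 for Hoxb2 and 1.42 for Hoxd8, and by −1.05 for Hoxa7, −1.25 for Hoxc8, −1.48 for Hoxa5 and −1.98 for Hoxa10. Hoxa9, a posterior gene known for its part in blood progenitors, had 6.91, 5.95 and 5.85 in 4a3, 4a3CK and 4a1CK, 5.02, 5.18 and 6.12 in PH, and 5.96 and 5.28 in MEF, so that 4a3 was the highest array. It stood 1.29 above the MEF mean in 4a3, which did not pass (adjusted p 0.338).

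**Figure D3:**
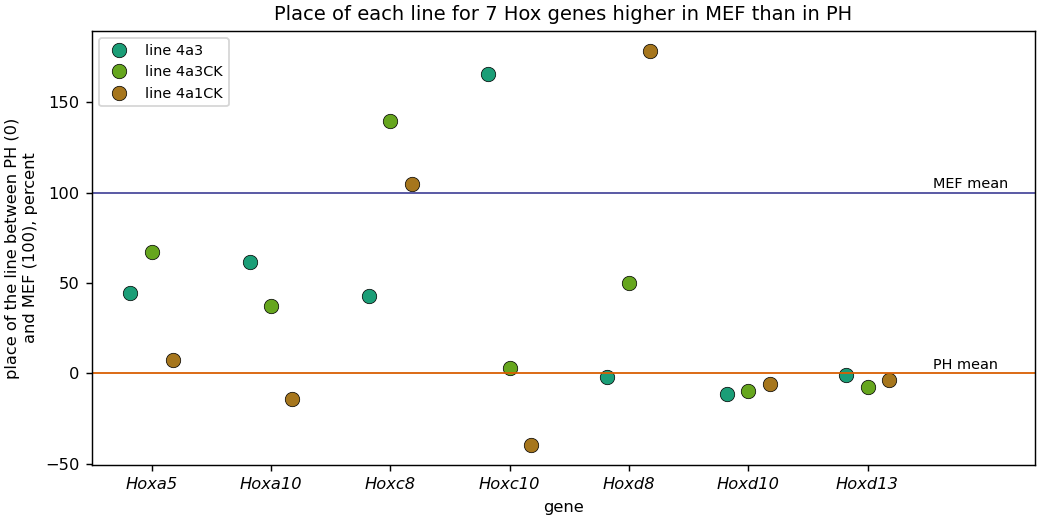
Place of each line (points) between the PH mean at 0 and the MEF mean at 100 (vertical axis, percent of the log2 difference) for the 7 Hox genes with a mean at least 1 lower in PH than in MEF and no overlap of the arrays. All lines lie at or below the PH mean for Hoxd10 and Hoxd13, and 1 line lies above the MEF mean for each of Hoxc10 and Hoxd8 and 2 for Hoxc8.

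For 7 genes, the 5 called plus Hoxc10 and Hoxd8, the mean was at least 1 lower in PH than in MEF with no overlap, and each line was placed on the scale from the PH mean (0%) to the MEF mean (100%). Line 4a3 was nearer to MEF for 2 of the 7, Hoxa10 at 61.7% and Hoxc10 at 166%. Line 4a3CK was nearer for 3, Hoxa5 at 67.2%, Hoxc8 at 139% and Hoxd8 at 50.3%. Line 4a1CK was nearer for 2, Hoxc8 at 105% and Hoxd8 at 178%. Each of these 5 genes lay nearer to PH in at least 1 other line. For Hoxd10 the lines lay at −11.6% to −5.99% and for Hoxd13 at −7.57% to −0.63%. The scale rests on 3 PH and 2 MEF arrays. The genes were chosen by the same PH and MEF values that set its ends, so the gap can be overstated. The counts of genes nearer to MEF are a description and not a test. For Hoxc10 and Hoxd8, which did not pass between PH and MEF, the scale describes small differences.

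Against hepatocytes, the lines together were higher for 1 Hox gene, Hoxc8, and lower for 0. Over all genes 1.49% were higher and 5.64% lower. Hoxc8 was higher by 3.46 ± 0.77 (adjusted p 0.0306), with all lines above all PH arrays. That call was lost without PH 1 (adjusted p 0.106), PH 2 (0.103) or 4a1CK (0.0746) and with PH 1 and PH 2 averaged (0.103). At an unadjusted p under 0.05 limma gave 5 Hox genes higher and 3 lower, against 5.66% and 15.0% of all genes. The groups did not overlap for 3 higher genes, Hoxc4, Hoxc8 and Hoxc9, against 5.04% of all genes, and 3 lower ones, Hoxa11, Hoxd3 and Hoxd10, against 21.3%. Hoxc9, a thoracic gene next to Hoxc8 in the cluster, had 5.82, 5.62 and 5.15 in 4a3, 4a3CK and 4a1CK, 4.33, 4.29 and 5.04 in PH, and 5.25 and 5.13 in MEF. Hoxc4 had 4.49, 5.23 and 4.61 in the lines, 4.14, 4.06 and 4.16 in PH, and 5.22 and 4.92 in MEF. Neither gene passed the test.

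**Figure D4:**
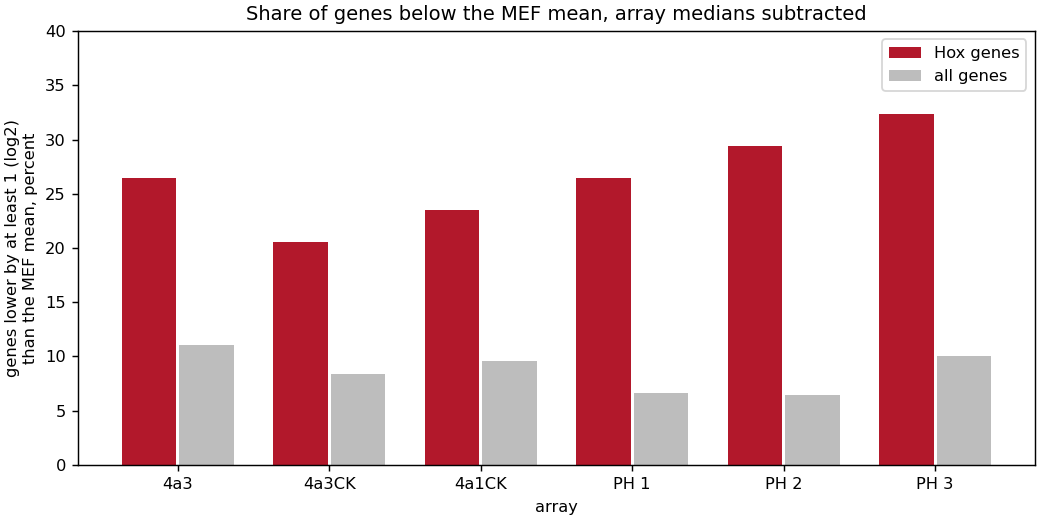
Share of genes at least 1 below the MEF mean on the log2 scale (vertical axis, percent) on each line and PH array after subtracting array medians, for the 34 Hox genes (red) and all 17097 genes (grey). The Hox share is 20.6% to 32.4% and the share of all genes 6.47% to 11.1%.

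Counted by array, a larger share of Hox genes than of all genes was at least 1 below the MEF mean, which was not tested. As deposited, 8 of 34 Hox genes were at least 1 lower in 4a3 (10.4% of all genes), 6 in 4a3CK (7.57%) and 8 in 4a1CK (9.25%). The numbers were 9 in PH 1 (6.94%), 11 in PH 2 (6.7%) and 6 in PH 3 (3.99%). After subtracting array medians they were 9, 7 and 8 in the lines and 9, 10 and 11 in PH 1, PH 2 and PH 3, and the share of all genes in PH 3 was then 10.0%. At least 1 above the MEF mean as deposited were 1 gene in 4a3, Hoxa9 (8.56% of all genes), 1 in 4a3CK, Hoxc8 (8.54%), and 0 in 4a1CK (9.2%). In PH 1 and PH 2 there were 0 (5.83% and 5.72% of all genes). In PH 3 the genes above were Hoxb6 and Hoxd4 (30.2% of all genes), neither of which was so after array medians were subtracted. These arrays are set against the same 2 MEF arrays, so the counts are not independent of each other.

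Hox proteins bind DNA with cofactors of the Pbx, Meis and Pknox families, of which 8 of 9 listed genes were measured. Meis2, a partner of Hox proteins in limb and trunk, was the only one called. It had 7.25, 7.13 and 7.41 in 4a3, 4a3CK and 4a1CK, 4.04, 3.89 and 5.41 in PH, and 6.14 and 7.34 in MEF. PH was lower than MEF, with a difference of −2.29 ± 0.50 (adjusted p 0.032), and the lines were higher than PH by 2.82 ± 0.45 (0.00786), with every line above every PH array. The lines did not differ from MEF beyond their spread (0.53 ± 0.50, adjusted p 0.595). The median over the 8 cofactors was −0.27 in PH minus MEF and −0.14 in the lines minus MEF, beside 0.25 and 0.16 over all genes. Without probe sets that can bind several transcripts, Meis2 was not called.

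Polycomb proteins keep Hox clusters silent and trithorax proteins keep them active, and 24 of 28 listed genes were measured. In PH against MEF 0 were lower and 1 was higher, Pcgf6, by 1.30 (adjusted p 0.042), against 2.47% and 3.37% of all genes. In the lines against MEF 3 were lower and 1 higher, against 4.47% and 1.98% of all genes. The differences were −1.68 for Phc1, −1.91 for Phc2 and −1.12 for Men1, a subunit of a trithorax-type methyltransferase complex, while Cbx7, a subunit of a Polycomb repressive complex, was higher by 2.30 (adjusted p 0.0127, 0.0275, 0.0235 and 0.0142). Cbx7 had 6.80, 6.19 and 6.96 in 4a3, 4a3CK and 4a1CK, 4.88, 4.93 and 6.10 in PH, and 4.42 and 4.28 in MEF. Against PH the lines were lower for 1, Phc2 (−2.52, adjusted p 0.00481), against 5.64% of all genes. Ezh1 and Ezh2, the methyltransferases of the other main Polycomb complex, were not called in any of the 3 comparisons.

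**Figure D5:**
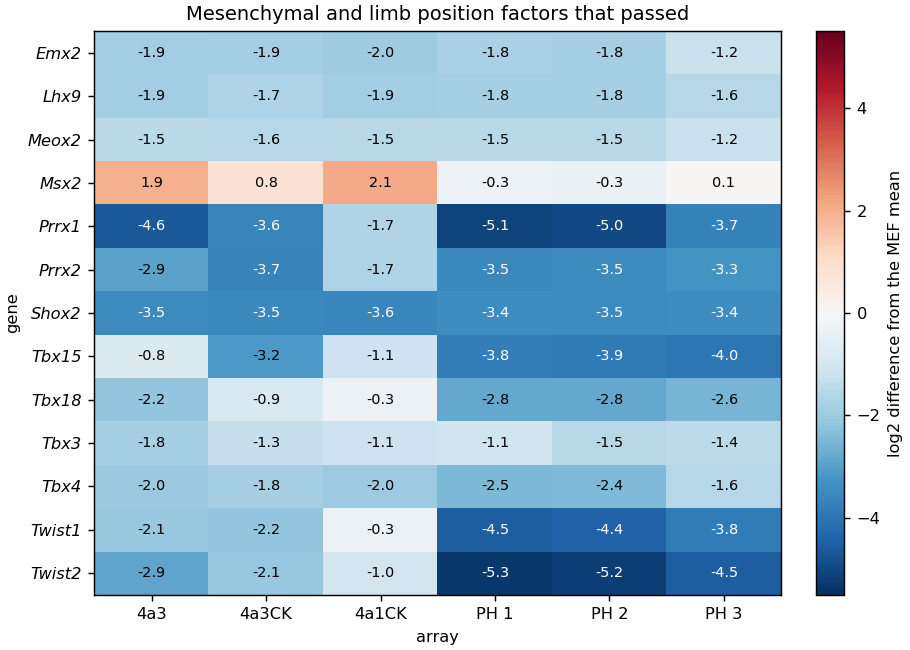
Log2 difference from the MEF mean (colour and number) on each line and PH array (columns) for the 13 mesenchymal and limb position factors called in at least 1 of the 3 group comparisons (rows). Shox2 lies at −3.4 to −3.6 on all 6 arrays, whereas Twist1 and Twist2 are nearer to the MEF mean in 4a1CK than in 4a3 or 4a3CK.

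Of the transcription factors that mark mesenchyme or limb position, several were lower in the lines and in PH than in MEF. Of 40 listed, 33 were measured. In PH against MEF 12 were lower and 0 higher, against 2.47% and 3.37% of all genes. In the lines against MEF 8 were lower and 1 was higher, against 4.47% and 1.98% of all genes. The lower genes were Tbx3, Tbx4, Prrx1, Prrx2, Shox2, Lhx9, Emx2 and Meox2. The higher gene was Msx2, by 1.61 (adjusted p 0.0456). Against PH the lines were lower for 0 and higher for 3, against 5.64% and 1.49% of all genes. These were Twist1, by 2.75, Twist2, by 3.0, and Msx2, by 1.81. Shox2, a limb and palate factor, had 3.82, 3.79 and 3.77 in 4a3, 4a3CK and 4a1CK, 3.91, 3.83 and 3.93 in PH, and 7.95 and 6.73 in MEF. Its difference from MEF was −3.54 ± 0.33 in the lines (adjusted p 0.000652) and −3.44 in PH. Twist2, a mesenchymal factor of dermis and bone, had 5.98, 6.79 and 7.84 in 4a3, 4a3CK and 4a1CK, 3.58, 3.71 and 4.33 in PH, and 9.31 and 8.43 in MEF. All lines lay between the groups. Prrx1 and Twist1 are also fibroblast markers here. Tbx15, a factor of trunk dermis and skeleton, had 7.25, 4.90 and 6.93 in the lines, 4.26, 4.15 and 4.07 in PH and 8.65 and 7.46 in MEF, so that 4a3CK alone lay far from the fibroblasts. The median of the 33 genes was −0.37 in PH minus MEF and −0.25 in the lines minus MEF.

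Noncoding RNAs of the clusters and the ParaHox and Evx relatives gave few differences. Of 19 listed noncoding RNAs 5 were measured, and limma called 0 of them in any of the 3 comparisons (at an unadjusted p under 0.05, 1 lower in PH against MEF). Hoxb5os, an antisense RNA of cluster B, had 5.11, 4.86 and 6.06 in 4a3, 4a3CK and 4a1CK, 4.21, 4.11 and 5.32 in PH, and 5.82 and 5.70 in MEF, with 4a1CK the highest line as for Hoxb2. None of the 8 ParaHox and Evx genes was called with the lines pooled (at an unadjusted p under 0.05, 1 higher in the lines against MEF and 1 against PH). With 4a3CK taken alone, 2 were higher than MEF. Cdx2, the intestinal and posterior ParaHox factor that acts upstream of Hox genes in the embryo, had 5.61, 9.01 and 4.97 in 4a3, 4a3CK and 4a1CK, 4.11, 4.29 and 4.89 in PH, and 4.13 and 4.26 in MEF. It was 4.82 ± 0.47 above MEF in 4a3CK (adjusted p 0.000873). Pdx1, the pancreas and duodenum factor, was 2.38 ± 0.43 above MEF in 4a3CK (adjusted p 0.0183), at 5.97 against 3.84 in 4a3 and 3.86 in 4a1CK.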

How the data were processed

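Total RNA of 8 samples was hybridized to Affymetrix perfect-match mouse arrays, 1 per sample, labelled as 3 iHep, 3 PH and 2 MEF samples. The table the authors deposited holds 1 log2 signal for each probe set and array, made with RMA in Partek per the submitters' processing notes. Versions of these were not given in the sources used here. The table held 45141 probe sets, of which 28898 had 1 gene symbol, 551 several and 15692 none. The highest-mean probe set was used for each of 17097 genes. Models with 3 groups (5 residual degrees of freedom) or with each line apart (3) were fitted to all genes with limma 3.58.1 in R 4.3.3, without blocks, and tested on simulated data. P-values were two-sided and adjusted by Benjamini and Hochberg over all genes, and a call needed an adjusted p under 0.05 and a log2 difference of at least 1. Errors are standard errors of the model. Precision is limited by the number of arrays, which have no read depth. Tables were handled in Python 3.11.15 with pandas 2.3.3 and numpy 2.4.6, and plots drawn with matplotlib 3.10.9.

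The members and the 7 other lists were chosen with earlier results of these data known. Named were Hox genes called in a comparison, those spanning at least 2, and their neighbours where order is described, plus called members of the other lists and up to 3 with the largest difference. Ezh1 and Ezh2 were named outside that rule. MEF 1 and MEF 2 share numbers with PH 1 and PH 2, but the deviations of MEF 1 and PH 1 from their pair means correlated at −0.20 over genes (the other number gives the same value by construction), so the numbers were not taken as pairs.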

Additional observations from a re-analysis of the deposited data

Results flagged for a closer look

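Hoxc8 was singled out because the lines lay on opposite sides of the MEF mean. It differed from the MEF mean by 1.42 in 4a3CK, at 8.86, and by −2.07 in 4a3, at 5.37, against 7.71 and 7.16 in MEF. Each line is 1 array, neither difference passed (adjusted p 0.313 and 0.083), and the difference between the lines was not tested. Groups of 2 or 3 arrays were too small for a search for single outlying samples.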

How the results depend on the processing

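Hox genes called or spanning at least 2 kept their direction under every alternative in comparisons with a call or a difference of at least 1. Smaller differences did not all do so. With array medians subtracted, PH minus MEF turned from 0.21 to −0.05 for Hoxa4 and from 0.24 to −0.02 for Hoxb7. Medians near 0 also changed direction when array medians were subtracted. For paralogue numbers 1 to 4 in 4a3CK the median of 0.04 became −0.06, and for cluster D in PH 0.04 became −0.21. With 2 or 3 arrays per group and single arrays for the lines, counts of calls moved readily, and a lost call is not a sign of equal levels. Hox genes lower in PH than in MEF, 5 as reported, were 6 with the replicate block, 9 with the pairing of numbers crossed, and 2 or 12 in the first or second submission set alone. They were 2 to 5 when arrays were left out in turn, with 2 without MEF 1, 2 without MEF 2 and 3 without PH 1. Those lower in the lines than in MEF, 3 as reported, were 1 at a minimum difference of 2 and 2 to 5 with arrays left out, 5 being the count without PH 3. Against PH, lines were higher for 2 genes with quantile normalization or array medians subtracted, and for 0 with PH 1 and PH 2 averaged, with a block by submission order or in the first set alone, and for 0 to 2 with arrays left out. They were lower for 1 with that block or in that set, and for 0 to 1 with arrays left out. In 4a3 the count lower than MEF, 1 as reported, was 4 with quantile normalization, 3 with medians subtracted, 2 with a trended and robust variance or PH 1 and PH 2 averaged, and 0 (without MEF 1) to 5 (without PH 3) with arrays left out. In 4a3CK, 2 became 1 with the mean of all probe sets, without probe sets that can bind several transcripts or with medians subtracted, and 1 to 3 with arrays left out. Hoxa10 was not measured at all without probe sets that can bind several transcripts, because its only probe set is of that kind. In 4a1CK, 3 became 5 with quantile normalization, and 1 (without MEF 1) to 6 (without PH 3) with arrays left out. In 4a3CK 0 to 1 were higher than MEF with arrays left out, 1 being Hoxc8 without PH 3. With only the groups compared, each line had 0 calls, among Hox genes and among all genes.

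Members called in at least 1 of the 3 group comparisons also moved. Cofactors, 1 as reported, were 0 without probe sets that can bind several transcripts. Polycomb and trithorax genes, 5, were 2 with the mean of probe sets or a minimum of 2, 3 with the trended variance or in the first set, and 1 to 5 with arrays left out. Position factors, 13, were 8 at a minimum of 2, 6 in the first set and 9 to 13 with arrays left out. Neighbours, 5, were 3 without probe sets that can bind several transcripts or with PH 1 and PH 2 averaged, 1 at a minimum of 2 and 2 to 8 with arrays left out. Noncoding RNAs, 0, were 1 with medians subtracted, and ParaHox and Evx genes, 0, were 1 in the first set. Retinoic acid genes, 8, were 5 in the first set and 4 to 8 with arrays left out. With a floor at the array median plus 2, 4 Hox genes passed on at least 1 array, against 10. Between 4a3CK and 4a3 the genes apart, 2, were 1 at a minimum of 2 and 4 with quantile normalization. Between 4a1CK and 4a3CK, 6 became 0, and between 4a1CK and 4a3, 7 became 3, at a minimum of 2.

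Hoxd13 was called in PH and in the pooled lines under all 24 and 20 alternatives. The crossed pairing, the single submission sets and the averaged PH pair beyond PH against MEF were chosen after seeing the data. Leaving out dim genes removed 8717 genes, 24 of them Hox. The causes of these changes were not tested.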

Other observations

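Of 30 listed genes that flank the clusters 27 were measured. In PH against MEF 0 were lower and 2 higher, against 2.47% and 3.37% of all genes. The higher genes were Snx10 beside cluster A, by 1.92 (adjusted p 0.0236), and Nfe2l2 beside cluster D, by 2.24 (0.0162). In the lines against MEF 3 were lower (4.47% of all genes), all beside cluster B: Snx11 (−1.30), Nfe2l1 (−1.43) and Ube2z (−1.47). Ube2z, a ubiquitin-conjugating enzyme, had 6.56, 7.47 and 6.76 in 4a3, 4a3CK and 4a1CK, 8.10, 7.96 and 8.12 in PH, and 8.41 and 8.40 in MEF. The same 3 genes, Snx10 and Nfe2l2 were lower in the lines than in PH, which makes 5 of 27, against 5.64% of all genes.

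Retinoic acid switches on anterior Hox genes in the embryo, and 16 of 19 listed genes of its receptors and turnover were measured. In PH against MEF 3 were lower (Crabp1, Crabp2 and Aldh1a2) and 3 higher (Cyp26a1, Aldh1a1 and Dhrs3), against 2.47% and 3.37% of all genes. In the lines against MEF 3 were lower (Crabp2, Cyp26b1 and Aldh1a2) and 0 higher, against 4.47% and 1.98% of all genes. At an unadjusted p under 0.05 limma gave 4 higher, against 10.0% of all genes. Against PH the lines were lower for 2, Cyp26a1 (−3.03) and Aldh1a1 (−6.04), and higher for 1, Nr2f1, an orphan nuclear receptor, by 3.82. The shares of all genes there were 5.64% lower and 1.49% higher. Crabp1, a retinoic acid binding protein, had 6.22, 11.06 and 4.28 in 4a3, 4a3CK and 4a1CK, 3.67, 3.58 and 4.15 in PH, and 11.28 and 10.13 in MEF, so that 4a3CK lay with the fibroblasts and the other lines did not. Aldh1a1, an enzyme that makes retinoic acid, had 3.77, 9.26 and 3.58 in the lines in that order, 11.43, 11.38 and 11.92 in PH, and 3.60 and 4.15 in MEF.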
